A study of Mus musculus with 8 samples.

Results

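The genes described here code for integrin subunits carried by leukocytes. They were the 10 symbols Itgad, Itgam, Itgax, Itgal, Itgb2, Itga4, Itgb7, Itga6, Itgav and Itgb1, listed by name out of 24421 gene symbols in each count table. All 10 were found in all 8 libraries, and all 10 passed the filter on low counts that left 13821 genes for testing. Itgad was chosen by its measured counts, which nearly vanish in the ABCG1KO libraries, so its level there is a description and carries no test. The other 9 were listed as further leukocyte integrins to set beside it.

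An integrin is a pair of membrane proteins, 1 α and 1 β subunit, that binds a ligand outside the cell and links it to actin inside. The β2 integrins are restricted to leukocytes: Itgb2 (CD18) is the shared β subunit, and it pairs with Itgal (CD11a), Itgam (CD11b), Itgax (CD11c) or Itgad (CD11d). Macrophages use them for firm adhesion to ICAM-family ligands and for uptake of complement-coated particles. Itga4 pairs with Itgb1 to bind VCAM-1 and fibronectin, or with Itgb7 to bind MAdCAM-1. Itga6 with Itgb1 binds laminin, and Itgav, with one of several β subunits, binds RGD-containing matrix proteins such as vitronectin.

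The study sequenced RNA of primary mouse macrophages, all from animals on a normal diet, in 3 genotypes: WT (3 libraries), LysM-DKO (3 libraries) and ABCG1KO (2 libraries). The series' design text calls the double knockout Epsin-DKO, and LysM names the lysozyme promoter that is commonly used to drive Cre in macrophages, neutrophils and monocytes. Epsins are endocytic adaptor proteins, coded by Epn1 and Epn2 in these cells, and Abcg1 codes for a transporter that moves cholesterol out of the cell. The labels give no age, strain, sex or tissue site, and they do not say whether WT animals carried Cre or floxed alleles, or whether libraries came from separate animals, so p-values here measure the spread between libraries.

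Counts assigned to genes ranged from 29567615 to 41888516 per library. Levels below are in CPM, the counts of a gene per 1e+06 counts of the library, with library sizes scaled by the trimmed mean of M-values, and tests are edgeR's quasi-likelihood test over all 13821 genes with Benjamini-Hochberg adjustment, called at an adjusted p under 0.05. In a bulk library, fewer cells of a type and less RNA per cell cannot be told apart. Abcg1 stood at 66.9 ± 9.16 CPM (SD, n = 2) in ABCG1KO, against 385 ± 34.6 CPM for the 3 WT libraries and 346 ± 162 CPM for the 3 LysM-DKO libraries. Epn1 stood at 208 ± 19.6 CPM in WT and 169 ± 14.1 in LysM-DKO, and Epn2 at 7.34 ± 2.08 and 8.40 ± 4.20, and neither difference was called (adjusted p = 0.43 and 0.852 by edgeR). For Epn1 the 3 LysM-DKO libraries (169, 183 and 155 CPM) all lay below the 3 WT libraries (229.7, 203 and 191 CPM), while for Epn2 the groups overlapped. A count over the whole gene need not fall when only some exons are removed. Lyz2, the gene whose promoter LysM names, was at 6849 ± 1088 CPM in LysM-DKO, below WT (14620.3 ± 1428) and ABCG1KO (12824 ± 2245), and the difference from WT was not called (edgeR adjusted p = 0.173). The 8 macrophage markers summed to 17867 to 21102 CPM over WT, 11518 to 13559 CPM over LysM-DKO and 17614 to 21093 CPM over ABCG1KO, with none at 0. Lyz2 is 1 of these 8 and most of the sum in every library, so the lower sum in LysM-DKO follows Lyz2. Of the 8 markers, 3 were higher and 5 lower in LysM-DKO than in WT, with 0 called and a median log2 difference of -0.04. Xist and the Y-linked gene Ddx3y put LysM-DKO replicate 1 and both ABCG1KO libraries on the male side and the other 5 on the female side, so sex and genotype cannot be told apart between ABCG1KO and WT. The ABCG1KO libraries also had more alignments in the class that maps to several places, 6.93% and 6.74% against 2.65% to 3.01% in the other 6, and more outside annotated genes, 10.2% and 13.8% against 4.26% to 6.07%.

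Itgad, Itgax and Itgam lie side by side on chromosome 7 (GRCm38), all on the plus strand. Itgam runs from 128062640 to 128118491, Itgax from 128129547 to 128150657 and Itgad from 128154376 to 128223816, with gaps of 11.1 kb and 3.72 kb between them. Itgal is on the same chromosome at 127296260 to 127335138, 728 kb before Itgam. In GENCODE's transcripts the coding sequence of Itgad was identical to that of Itgax at 76.0% of aligned bases, to Itgam at 69.1% and to Itgal at 66.7%. The likeness to Itgax was uneven: 6 stretches of at least 50 identical bases, together 678 bases or 18.8% of the coding sequence of Itgad, lay in exons 12 to 15 and 28 to 29 of transcript Itgad-201. The longest stretch had 188 bases, at coding positions 1324 to 1511 counted from the A of the start codon. In Itgad it spans exons 12 to 14, at 128189340 to 128189789, and in Itgax it spans exons 11 to 13, at 128135612 to 128136062. It is shown, with introns left out, because a read from inside it cannot be placed in 1 of the 2 genes. The aligned stretch of Itgam is set beneath it, with the 67 bases that differ in capitals:
Itgad and Itgax: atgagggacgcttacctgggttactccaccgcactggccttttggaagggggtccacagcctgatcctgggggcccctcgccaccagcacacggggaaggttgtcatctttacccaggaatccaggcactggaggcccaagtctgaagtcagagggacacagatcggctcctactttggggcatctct
Itgam: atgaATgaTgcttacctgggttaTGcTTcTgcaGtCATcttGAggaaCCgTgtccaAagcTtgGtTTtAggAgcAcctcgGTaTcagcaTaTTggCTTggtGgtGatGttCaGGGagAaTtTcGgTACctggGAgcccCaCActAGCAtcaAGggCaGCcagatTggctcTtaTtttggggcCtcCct
Itgam matched Itgad at 121 of the 188 bases (64.4%), and its longest run shared with Itgad anywhere in the coding sequence had 16 bases.

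**Figure D1:**
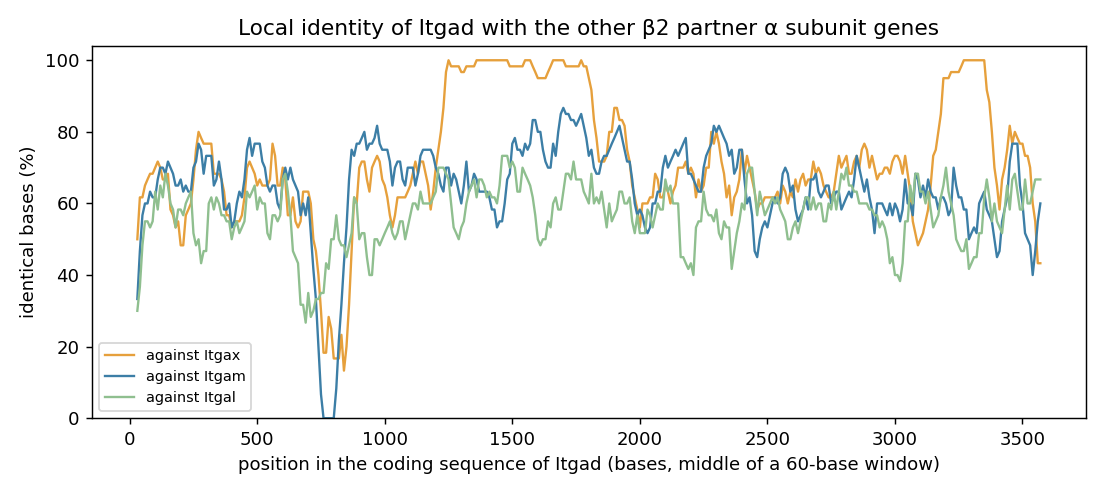
Percent of bases of Itgad identical to Itgax, Itgam or Itgal (y axis) in 60-base windows, moved by 10 bases along the aligned coding sequence of Itgad (x axis, bases). 32 of 355 windows matched Itgax in full, in a long block before the middle and a short one near the end, and none matched Itgam or Itgal in full.

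Over the exons of its GENCODE transcripts, 398 of the 4294 windows of 50 bases in Itgad (9.27%) also occurred in a gene elsewhere, 384 of them in Itgax. The other 90.7% occurred in no gene at another place. A further measure concerns genes that lie over Itgad itself: 11.9% of its windows also belonged to such a gene, among them the pseudogene Gm17831 and the transcript 4931431B13Rik. For Itgax the share found elsewhere was 8.88%, all of it in Itgad, and for Itga6 it was 6.32%, all in Gm29397. It was 1.16% for Itgb2, 0.381% for Itga4, and 0 for Itgam, Itgal, Itgb1, Itgav and Itgb7. Itgam instead shared 68.5% of its windows with Gm49368, a gene model that overlaps it from near its start and whose symbol the tables do not list, and Itga4 shared 10.6% with its neighbour Cerkl. The read length and the strand setting of the counting are not given in the sources used here. Counts of Itgad and Itgax are therefore uncertain over the shared stretches, and those of Itga4 over its overlap with Cerkl. Gm49368 is not among the listed symbols, so its overlap bears on counts of Itgam only if it was counted under another symbol.

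**Figure D2:**
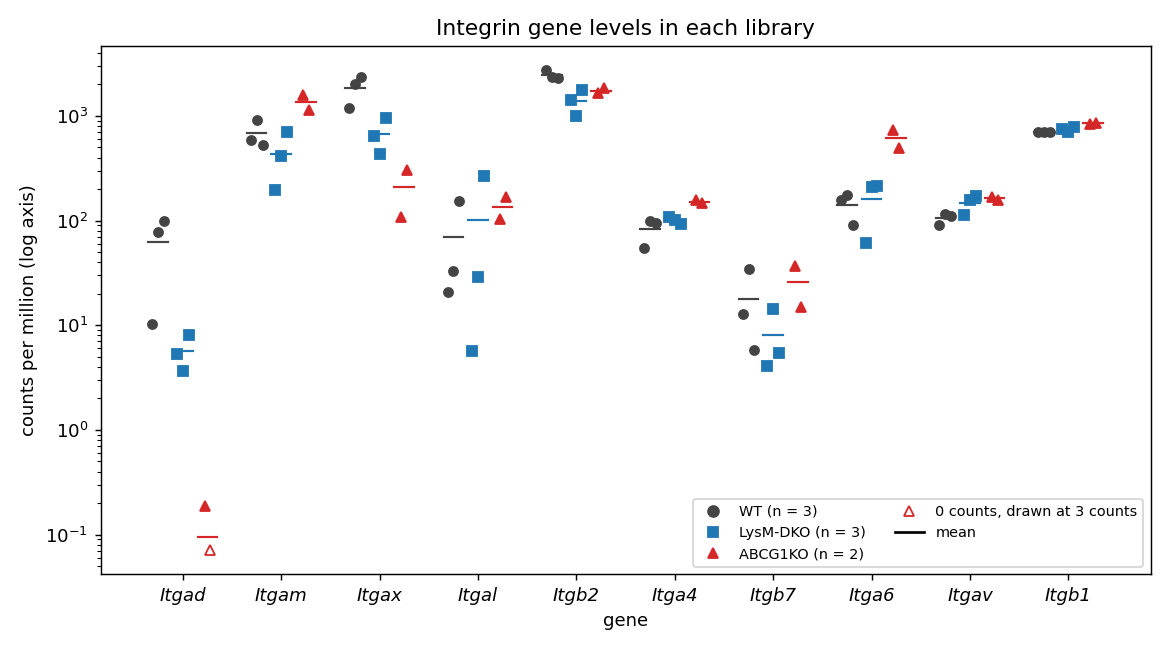
Level of each integrin gene in each library (points, CPM on a log axis), with the group mean as a line; WT and LysM-DKO have 3 libraries and ABCG1KO has 2. The Itgad points separate the 3 groups, whereas the 3 WT points of Itgb1 lie on top of each other near 698 CPM.

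Itgad, the α subunit CD11d of tissue macrophages, had the lowest ABCG1KO level of the 10 genes. It had 10.3, 78.2 and 99.5 CPM in the 3 WT libraries, 5.31, 3.68 and 8.15 CPM in LysM-DKO, and 0.188 and 0 CPM in ABCG1KO. The 3 groups did not overlap, and WT replicate 1 lay far below the other two WT libraries and close to LysM-DKO replicate 3. The ABCG1KO values rest on 6 counts in one library and 0 in the other, where WT libraries had 353 to 3844. Pooled, the 6 counts are 0.0808 CPM (exact Poisson 95% interval 0.0296 to 0.176, which covers counting error only). That level is 0.129% of the WT mean, 0.781% of the lowest WT library and 1.41% of the LysM-DKO mean. The 0 in ABCG1KO replicate 2 allows up to 0.0708 CPM, the value of 3 counts there. The shared stretches were 9.27% of Itgad's windows, and Itgax, which carries the same 188 bases, had 109 and 306 CPM in these libraries. The share of alignments to several places was higher in both ABCG1KO libraries, as given above, and its part in the level of Itgad was not tested.

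LysM-DKO against WT is not the contrast that chose Itgad, but it shares the WT libraries with it and is not independent of the choice. There Itgad had a log2 difference of -3.46 ± 0.837 (SE), with means of 5.71 ± 2.26 and 62.7 ± 46.5 CPM (SD, n = 3 each). All 3 LysM-DKO libraries lay below all 3 WT libraries. The difference did not pass the test over all genes (edgeR, adjusted p = 0.289, unadjusted p = 0.0036), and over 14 other settings the adjusted p ranged from 0.0638 to 0.672. LysM-DKO replicate 1, the library with the male pattern, was at 5.31 CPM, between the 2 others of its group.

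Itgax (CD11c), abundant on alveolar macrophages, lipid-laden macrophages and dendritic cells, was the most abundant α subunit of WT. It had 1179, 2040.1 and 2376 CPM in WT, 647, 434 and 956 CPM in LysM-DKO, and 109 and 306 CPM in ABCG1KO. No group overlapped another. Itgax fell in ABCG1KO against WT by 3.17 on the log2 scale (SE 0.571, edgeR adjusted p = 0.0102), a level 8.98-fold lower. The call held in all 15 other settings run, with adjusted p up to 0.0462. Against WT, LysM-DKO had a log2 difference of -1.46 ± 0.454 with an adjusted p of 0.354 by edgeR, and DESeq2 called it (adjusted p = 0.0273). Between LysM-DKO and ABCG1KO the difference was 1.71 ± 0.53 (edgeR adjusted p = 0.0699), and it passed by DESeq2 (adjusted p = 0.003) and without ABCG1KO replicate 2 (log2 difference 2.64, edgeR adjusted p = 0.0288). Whenever an ABCG1KO library is left out, here and below, the lone library left is assumed to vary like the other groups.

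Itgam (CD11b), the complement receptor α subunit, had 588, 924 and 526 CPM in WT, 197, 411 and 695 CPM in LysM-DKO, and 1588 and 1144 CPM in ABCG1KO. WT and LysM-DKO overlapped, and both ABCG1KO libraries lay above all 6 others. The log2 difference was 1.01 ± 0.473 between ABCG1KO and WT (edgeR adjusted p = 0.188) and -0.65 ± 0.43 between LysM-DKO and WT (adjusted p = 0.567), so neither passed. Between LysM-DKO and ABCG1KO it was -1.65 ± 0.474, just short of the threshold (edgeR adjusted p = 0.0556). That last difference passed without LysM-DKO replicate 3, the highest of its group (-2.17, edgeR adjusted p = 0.0249), and by DESeq2 (adjusted p = 0.00226).

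The balance of the neighbours Itgam and Itgax was opposite in ABCG1KO. The ratio of Itgam to Itgax counts was 0.499, 0.453 and 0.222 in WT and 0.304, 0.946 and 0.727 in LysM-DKO, below 1 in all 6 libraries, and 14.6 and 3.74 in ABCG1KO. On the log2 scale its mean was 2.88 ± 1.39 for the 2 ABCG1KO libraries, -1.44 ± 0.64 for the 3 WT libraries and -0.75 ± 0.86 (SD) for the 3 LysM-DKO libraries. The difference of 0.69 between LysM-DKO and WT was smaller than the SD within LysM-DKO; 3 against 3 libraries cannot reach 0.05 (exact two-sided permutation test, p = 0.4, smallest possible 0.1). Per kilobase of exon, Itgax made up 68.5% to 78.1% of the summed level of the 4 α subunits in WT, 53.0% to 78.0% in LysM-DKO, and 6.91% and 21.5% in ABCG1KO. Itgam made up 88.6% and 70.5% in ABCG1KO, and Itgad 3.30% at most in any library.

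**Figure D3:**
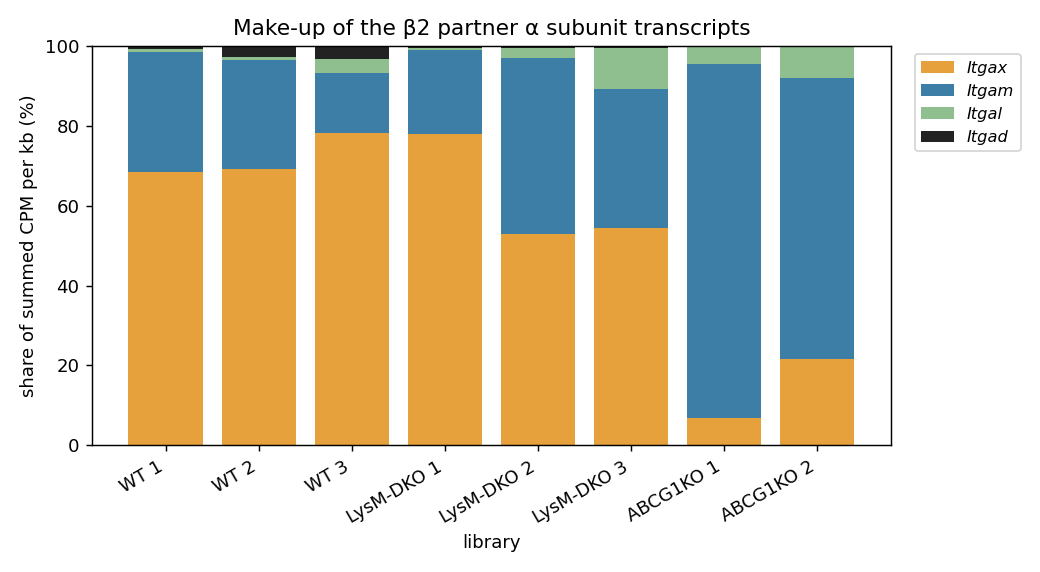
Share of each β2-partner α subunit in the summed CPM per kb of Itgax, Itgam, Itgal and Itgad (y axis, percent) in each library (x axis). Itgax is the largest part in the 6 WT and LysM-DKO libraries and Itgam in both ABCG1KO libraries.

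For reference, the 250 bases upstream of the RefSeq start sites of these neighbours (GRCm38.p6, plus strand) are given with each GAGGAA in capitals, searched on both strands (TTCCTC on the other). GAGGAA is a core recognised by PU.1 (Spi1), a factor that drives many myeloid genes. The Itgam stretch is chr7:128062390-128062639 and the Itgax stretch is chr7:128129300-128129549:
Itgam: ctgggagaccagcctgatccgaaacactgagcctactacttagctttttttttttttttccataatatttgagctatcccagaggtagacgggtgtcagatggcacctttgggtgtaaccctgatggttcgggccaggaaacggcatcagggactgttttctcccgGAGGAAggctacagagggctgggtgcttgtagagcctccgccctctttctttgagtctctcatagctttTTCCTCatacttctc
Itgax: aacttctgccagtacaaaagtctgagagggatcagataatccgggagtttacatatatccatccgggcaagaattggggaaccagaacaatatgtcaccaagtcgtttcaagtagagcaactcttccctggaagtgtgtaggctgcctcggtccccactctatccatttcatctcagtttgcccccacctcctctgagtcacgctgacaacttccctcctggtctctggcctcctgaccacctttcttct
The letters occurred 2 times in the Itgam stretch and not in the Itgax stretch, and 23.3% of 32851 promoter stretches of this length hold them. Among the other listed genes with a promoter at hand, Itgav held them 2 times and Itgb1 1 time, and Itga4 and Itgb7 did not. A RUNX motif, TGTGGT, was searched in the same way. It occurred 0 times in the Itgam and Itgax stretches and 1 time in that of Itga4, and 14% of the promoter stretches hold it. Only the exact letters of the 2 motifs were searched, and their part in the levels was not tested.

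Itgal (CD11a), the α subunit of LFA-1 on lymphocytes and many myeloid cells, had its widest spread in LysM-DKO. It had 21.0, 32.7 and 154 CPM in WT, 5.65, 29.2 and 269.6 CPM in LysM-DKO, and 103 and 169 CPM in ABCG1KO. All 3 groups overlapped, and in WT and LysM-DKO 1 library stood far above the rest. No contrast passed, with log2 differences of 0.55 ± 1.26 for LysM-DKO and 0.98 ± 1.38 for ABCG1KO against WT (edgeR adjusted p = 0.883 and 0.674). T cells and NK cells also carry LFA-1. The summed level of 8 T cell genes ran from 3.19 to 6.85 CPM over the WT libraries, 2.17 to 7.07 CPM over LysM-DKO and 4.11 to 5.92 CPM over ABCG1KO, and it was 2.17 CPM in LysM-DKO replicate 3, where Itgal was highest. Of the T cell sum, Cd4 alone had 1.73 to 3 CPM in WT, 1.4 to 4.17 CPM in LysM-DKO, and 1 and 3.16 CPM in ABCG1KO. Cd3e reached 0.512 CPM at most, and the NK cell gene Ncr1 was at 0 in all 8 libraries. Another NK cell gene, Klrb1c, was highest in WT replicate 3 and LysM-DKO replicate 3 (0.699 and 0.7 CPM), which were highest in Itgal within their groups. Nkg7 went the other way, at 0 in both of these and at 0.414 and 0.487 CPM in WT replicate 2 and LysM-DKO replicate 2. The NK cell list of 5 genes summed to 0.322 to 0.773 CPM in WT, 0.0969 to 1.07 in LysM-DKO, and 0.188 and 0.708 in ABCG1KO. Within WT and within LysM-DKO the sum was highest in replicate 2, not in the library highest in Itgal. The part of these cells in the level of Itgal was not tested.

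Itgb2 (CD18), the common β subunit, was the most abundant of the 10 genes per kilobase in every group. It had 2750, 2341 and 2313 CPM in WT, 1422, 998 and 1788 CPM in LysM-DKO, and 1642 and 1841 CPM in ABCG1KO. All 5 knockout libraries lay below all 3 WT libraries. Neither difference passed in edgeR: -0.82 ± 0.224 on the log2 scale for LysM-DKO (adjusted p = 0.342) and -0.50 ± 0.252 for ABCG1KO (adjusted p = 0.213). DESeq2 called the first (adjusted p = 0.0299). The summed α level per kilobase was 0.429 to 0.902 of the Itgb2 level in WT, 0.400 to 0.674 in LysM-DKO, and 0.658 and 0.531 in ABCG1KO.

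Itga4, the α subunit of VLA-4, rose in ABCG1KO against WT by 0.86 ± 0.24 on the log2 scale (SE, edgeR adjusted p = 0.0442). It had 54.5, 100 and 95.7 CPM in WT, 108, 101 and 92.7 CPM in LysM-DKO, and 158 and 146 CPM in ABCG1KO. ABCG1KO lay above all others, while LysM-DKO and WT overlapped (0.27 ± 0.218, edgeR adjusted p = 0.627). The ABCG1KO call sat at the threshold. It was lost without any 1 of 7 libraries, with adjusted p of 0.0501 and 0.0661 without WT replicates 2 and 3, 0.0519, 0.0581 and 0.0589 without LysM-DKO replicates 1, 2 and 3, and 0.158 and 0.0915 without ABCG1KO replicates 1 and 2. It was also lost with only the WT and ABCG1KO libraries in the fit (adjusted p = 0.0833). Against ABCG1KO, LysM-DKO had a log2 difference of -0.60 ± 0.24 (edgeR adjusted p = 0.135), which passed without WT replicate 1 (adjusted p = 0.0277).

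Itgb7, a β partner of Itga4 known from gut-homing lymphocytes and mast cells, had 12.7, 34.4 and 5.75 CPM in WT, 4.09, 14.4 and 5.47 CPM in LysM-DKO, and 36.8 and 14.8 CPM in ABCG1KO. The groups of WT and either knockout overlapped, and no contrast passed, with edgeR adjusted p from 0.201 to 0.685. The highest libraries were ABCG1KO replicate 1 and WT replicate 2. These were also the 2 libraries highest in the B cell gene Cd79a, at 5.71 and 9.55 CPM, where the other 6 had 0 to 2.87 CPM. The whole B cell list of 6 genes summed to 116 to 143 CPM in WT, 94.8 to 133 in LysM-DKO and 42.8 to 52.9 over the ABCG1KO libraries, most of it Cd22. The mast cell list of 7 genes summed to 0.181 to 3.15 CPM in WT, 0.121 to 0.561 in LysM-DKO, and 47.3 and 8.07 in ABCG1KO replicates 1 and 2. The part of these cells in the level of Itgb7 was not tested.

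Itga6, the laminin-binding α subunit, rose in ABCG1KO against WT by 2.13 ± 0.524 on the log2 scale, a 4.38-fold difference (SE, edgeR adjusted p = 0.0319). It had 156, 177 and 90.8 CPM in WT, 60.4, 211 and 216 CPM in LysM-DKO, and 741 and 496 CPM in ABCG1KO. Both ABCG1KO libraries lay well above the 6 others, and LysM-DKO spanned the WT range on both sides (0.20 ± 0.471, edgeR adjusted p = 0.886). Platelets carry Itga6 too, and the platelet list of 5 genes summed to 5.10 to 34.5 CPM in WT, 11.8 to 41.5 in LysM-DKO, and 166 and 101 in ABCG1KO replicates 1 and 2. Most of that sum was Pf4, at 163 and 99.1 CPM there, which macrophages can also express. Gp9 was at 0.0975 CPM or less and Gp1bb at 0.2 CPM or less in all 8 libraries. Ppbp was at 0.878 and 0.401 CPM in ABCG1KO, against 0.0259 CPM at most in WT and 0.25 CPM at most in LysM-DKO. Gp1ba was at 1.85 and 1.72 CPM in ABCG1KO, against 0.828 to 1.32 in WT and 1.25 to 1.8 in LysM-DKO. The part of platelets in the level of Itga6 was not tested. Itga6 was also the one gene of the 9 tested that differed between LysM-DKO and ABCG1KO, by -1.93 ± 0.522 (edgeR adjusted p = 0.0481). Against WT the call was lost without WT replicates 1, 2 or 3 (adjusted p = 0.0839, 0.0666 and 0.0854) and without ABCG1KO replicates 1 or 2 (adjusted p = 0.148 and 0.0551), and with no count filter (0.0504), while the log2 difference stayed between 1.80 and 2.39. Against ABCG1KO it was lost without WT replicates 1, 2 or 3 (0.0752, 0.0666 and 0.0556), LysM-DKO replicates 2 or 3 (0.0832 and 0.0657) and ABCG1KO replicates 1 or 2 (0.225 and 0.0666), with no count filter (0.0739), and with only these 2 groups in the fit (0.0914), all as adjusted p.

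Itgb1, the partner of Itga4 and Itga6, was the steadiest gene. It had 697, 698 and 699.7 CPM in WT, 746, 708 and 782 CPM in LysM-DKO, and 844 and 858 CPM in ABCG1KO. The groups did not overlap and stood in that order, but the differences were small: 0.09 ± 0.124 for LysM-DKO and 0.28 ± 0.138 for ABCG1KO against WT on the log2 scale (edgeR adjusted p = 0.782 and 0.198). With library size alone as the scale, the second was 0.52 and passed (adjusted p = 0.0284). Itgav, which pairs with Itgb1, Itgb3 or Itgb5, had 91.7, 116 and 109.6 CPM in WT, 114, 158 and 172 CPM in LysM-DKO, and 169 and 158 CPM in ABCG1KO. Its difference in ABCG1KO against WT was 0.63 ± 0.191 (edgeR adjusted p = 0.0597), close to the threshold, and 0.48 ± 0.173 in LysM-DKO (adjusted p = 0.373). The first passed in 3 of 15 other settings: by DESeq2 (adjusted p = 0.0237), with library size alone as the scale (0.0227), and without LysM-DKO replicate 1 (edgeR adjusted p = 0.0314).

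**Figure D4:**
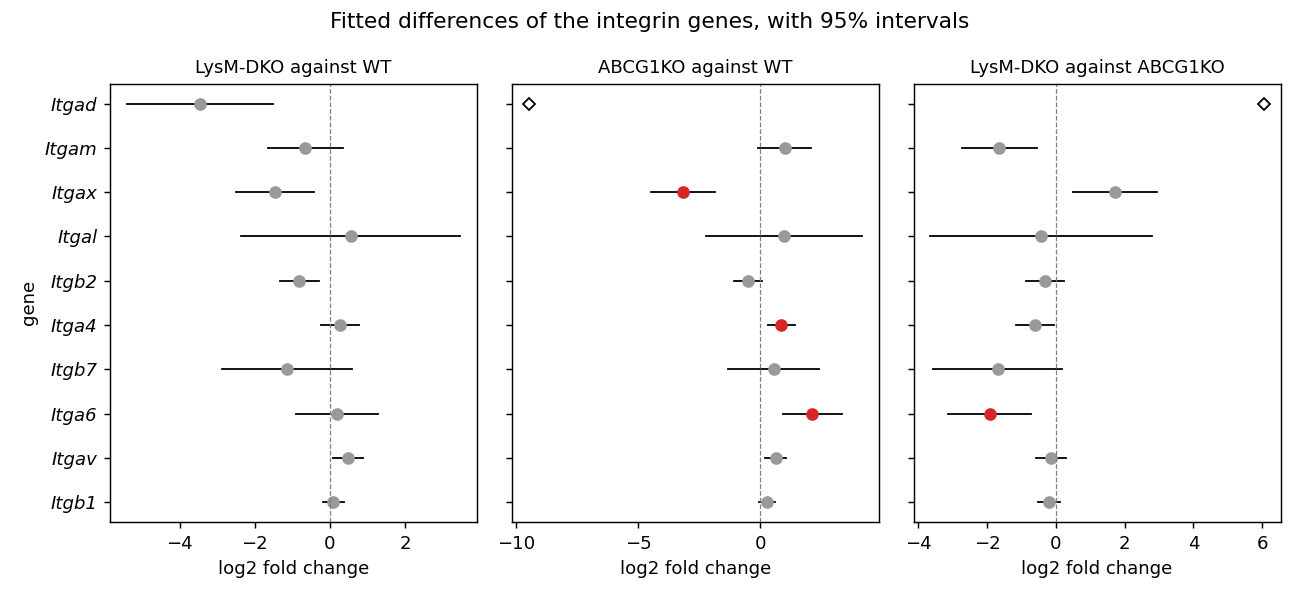
Log2 fold change of each integrin gene (points) with its 95% interval (lines) in the 3 comparisons, from edgeR's fit over all genes. Red points passed an adjusted p of 0.05: Itgax, Itga4 and Itga6 in ABCG1KO against WT and Itga6 between LysM-DKO and ABCG1KO; open diamonds mark Itgad where it carries no test.

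Counted over the genes, 0 of 10 were called by edgeR between LysM-DKO and WT, where 0.0362% of all genes tested were called. At an unadjusted p under 0.05 edgeR had 4 of 10 there, namely Itgad, Itgax, Itgb2 and Itgav, against 1611 of the 13821 genes. DESeq2 called 2 of the 10, and over all genes it called 106 higher and 172 lower. Itgad, Itgax and Itgb2 lay wholly below WT, where 9.98% of all genes did, and Itgb1 wholly above, where 11% did. Itgad is included in these counts although its choice shares the WT libraries, so its entry is not independent of that choice. Between ABCG1KO and WT, 2 of the 9 genes other than Itgad were called higher (7.21% of all genes) and 1 lower (8.83%). Between LysM-DKO and ABCG1KO, 0 of the 9 were called higher in LysM-DKO (7.76% of all genes) and 1 lower (5.64%). Ranges that did not overlap WT were found for 5 genes above it in ABCG1KO (23.9% of all genes) and, besides Itgad, 2 below it (24.2%). LysM-DKO lay wholly below ABCG1KO for 5 genes (22.6%) and, besides Itgad, wholly above it for 1 (25.6%). The 3 comparisons share libraries, so these counts are not independent.

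By level per kilobase of exon, the order in WT was Itgb2 (831), Itgax (430.4), Itgb1 (183), Itgam (138), Itga6 (32.4), Itgav (15.0), Itgad (14.6), Itgal (10.8), Itga4 (8.54) and Itgb7 (6.57), each a mean CPM per kb over 3 libraries. Itgb1 and Itgam overlapped between libraries, as did each neighbouring pair from Itgav to Itgb7. In LysM-DKO the neighbours from Itgb1 down to Itga4 overlapped in turn, and Itgad came last at 1.33 CPM per kb, overlapping Itgb7 (2.98). In ABCG1KO the order was Itgb2 (586), Itgam (277), Itgb1 (223), Itga6 (142) and Itgax (47.9), with no overlap among these, and Itgad again last at 0.0219 CPM per kb. Exon lengths come from GENCODE and not from the annotation the authors counted with.

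Among tested genes with at least 1 CPM on average in WT, those most like Itgad over the 8 libraries, by Pearson's r of log2 CPM, were Pla2g2e (r = 0.985), Mettl7a2 (0.975), Tcirg1 (0.972), Bloc1s6 (0.970) and Chmp1b (0.967). Mettl7a2 stood at 3.84 CPM in WT, 1.28 in LysM-DKO and 0 in both ABCG1KO libraries, the closest in shape at the low end. Tcirg1, a subunit of the vacuolar proton pump, was at 1174, 1000.1 and 706 CPM in the same order. Of the integrin genes listed, Itgax had the highest r with Itgad (0.91) and Itgb1 the lowest (-0.88). These r values are descriptions over 8 libraries that share genotype, depth and the differences between groups.

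Other genes of the integrin system were read from lists of subunits, ligands, activators, signalling proteins, trafficking proteins and transcription factors. In LysM-DKO against WT edgeR called none of the 98 genes tested in these 6 lists, where 0.0362% of all genes tested were called. In ABCG1KO against WT edgeR called 1 of 14 other subunits lower (8.83% of all genes) and 0 higher (7.21%). The 1 called was Itgb3, the β3 partner of Itgav, which fell by 3.19 on the log2 scale (SE 0.555, edgeR adjusted p = 0.00941). Itgb3 had 47.6, 24.1 and 64.3 CPM in WT, 46.5, 112 and 76 CPM in LysM-DKO, and 3.57 and 6.32 CPM in ABCG1KO. Itgb5, another β partner of Itgav, was at 557, 469 and 933 CPM in WT and 404 and 413 CPM in ABCG1KO and was not called (adjusted p = 0.15). The median log2 difference of the 14 was 0.18, against 0.01 over all genes.

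Among 15 ligand genes tested, 4 rose and 2 fell in ABCG1KO, with a median of 0.33, where 7.21% of all genes tested rose and 8.83% fell. Those that rose were Icam1, Jam2, Fn1 and Thbs1, and those that fell were Spp1 and Mfge8. Of these, Mfge8, a bridging protein between αv integrins and dying cells, fell by 5.27 ± 0.685 on the log2 scale (edgeR adjusted p = 0.00249), from 2295, 3340.5 and 3701 CPM in WT to 41.9 and 119.7. Spp1 (osteopontin), an RGD ligand of αv integrins, fell by 3.93 ± 0.562 (adjusted p = 0.00381). Thbs1 (thrombospondin 1) rose by 3.53 ± 0.506 and Fn1 (fibronectin) by 2.25 ± 0.374 (adjusted p = 0.004 and 0.0068).

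The next 4 lists are set against the same shares of all genes, 7.21% called higher and 8.83% called lower in ABCG1KO against WT, and the median of 0.01. Of 17 activation genes tested, 3 rose and 0 fell, with a median of 0.15. They were Tln2, a talin that links integrin tails to actin (2.66 ± 0.382, edgeR adjusted p = 0.00373), Cyth1, the cytohesin that binds the β2 tail (0.95 ± 0.244), and the adaptor Fyb (0.64 ± 0.164). Tln2 had means of 1.89 CPM in WT and 11.9 CPM in ABCG1KO. The other talin listed, Tln1, was lower in ABCG1KO and not called, at 710.2 and 645 CPM against 899.8, 977 and 1214 CPM in WT. Of 26 signalling genes, 3 rose (the Src-family kinase Fgr, Vav1 and the adaptor Lcp2) and 1 fell (Ptk2b, coding for the kinase Pyk2), with a median of 0.03. Of 14 trafficking genes, 1 rose (Rab11a, 0.62 ± 0.174) and 3 fell, with a median of 0.04. Those that fell were the tetraspanins Cd63 (-2.19 ± 0.317), Cd53 (-1.36 ± 0.246) and Cd9 (-1.21 ± 0.289). Of 12 transcription factors, 3 rose and 0 fell, with a median of 1.08: Cebpa (1.84 ± 0.298), Cebpb (1.69 ± 0.428) and Klf2 (2.81 ± 0.791). Klf2 was at 113 and 12.9 CPM in the 2 ABCG1KO libraries and 6.21 to 11.2 CPM in WT, so the first library set its difference.

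Markers of macrophages and of other macrophage states moved with the ABCG1KO group. Of the 8 macrophage markers, 3 rose against WT and 1 fell: Csf1r went from a mean of 1249.9 to 2853 CPM, Adgre1 from 606 to 1399 and Cd14 from 139 to 507, and Cd68 from 2377 to 1143. The list of 9 resident peritoneal macrophage genes summed to 18.4 to 71.9 CPM in WT, 54.5 to 65.3 in LysM-DKO, and 1924 and 371 in ABCG1KO, and 4 of its 9 genes were called higher there and 0 lower, against 7.21% and 8.83% of all genes. The list of 8 monocyte and recruited macrophage genes summed to 9.34 to 38.9, 10.7 to 76.9, and 296 and 149 CPM, with 3 of 8 called higher and 0 lower. Within them Timd4 went from 0.856 CPM at most in WT to 37.4 and 11.9, and Ccr2 from 5.47 at most to 127 and 40.2. The dendritic cell list of 6 genes summed to 1.81 to 8.67 CPM in WT, 1.43 to 3.42 in LysM-DKO, and 11.5 and 13.0 in ABCG1KO, with 0 of 4 tested genes called. Within it the means in WT and ABCG1KO were 0.659 and 7.38 CPM for Cd209a, 0.648 and 3.91 for Zbtb46, and 2.46 and 0.263 for Clec9a, and Flt3 was at 0.314 CPM or less. The summed eosinophil list of 5 genes lay below WT in both knockouts: 15.8 to 30.2 CPM in WT, 3.14 to 14.0 in LysM-DKO, and 4.08 and 7.45 in ABCG1KO. Most of it was Siglecf, with 0 of 3 tested genes called and Epx at 0.0627 CPM or less. Siglecf and Il5ra lay below WT in both knockouts, while Ccr3 overlapped it, at 0.41 to 1.71 CPM in WT, 0.0969 to 0.9 in LysM-DKO, and 0.47 and 1.25 in ABCG1KO. Fibroblast genes, a list of 6, summed to 755 to 913 CPM in WT, 678 to 1663 in LysM-DKO, and 160 and 1185 in ABCG1KO. In ABCG1KO replicate 1, which had the higher resident and monocyte sums, Itgam and Itga6 were higher and Itgax was lower than in replicate 2. The part of these cells and macrophage states in the levels of Itgad, Itgax, Itgam and Itga6 was not tested.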

How the data were processed

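Per the submitters' processing notes, STAR 2.7.9a, TopHat, HTSeq 0.11.2, DESeq2 1.30.1, limma and the build mm10 were used, with no roles stated. The authors deposited whole-number counts per gene symbol, 1 file per library, with the counter's summary rows, which were kept out of library sizes. Counts were filtered (filterByExpr), scaled by TMM and fitted in 1 model of the 8 libraries with edgeR 4.0.16 (robust quasi-likelihood, R 4.3.3). The standard error is the log2 fold change divided by the square root of F. DESeq2 1.42.0 was an alternative. The fit was tested on simulated data. Depth was 29567615 to 41888516 counts. Replicates differed by more than sampling noise. Sequences came from GENCODE transcripts and RefSeq promoters (GRCm38.p6, 6 of 10 genes matched) and were aligned with Biopython 1.88. A log2 pseudocount of 0.1 CPM was used for likeness to Itgad. The genes and lists were chosen with earlier results of these data known. Named beyond the 10 are the genes behind the genotype labels, up to 4 called genes per list by adjusted p, the 5 genes most like Itgad, and defining markers. Itgb5 and Tln1, which were not called, are named beside Itgb3 and Tln2.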

Additional observations from a re-analysis of the deposited data

How the results depend on the processing

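Between LysM-DKO and WT, DESeq2 called 106 of all genes higher and 172 lower, against 3 and 2 by edgeR. The number of integrin genes called there was 0 under every other setting except DESeq2, which called 2. In the ABCG1KO contrasts, counted without Itgad, it was 3 against WT, compared with 5 with library size alone as the scale, and 1 to 3 when each replicate was left out in turn. Library size alone moved the median of all genes from 0.01 to 0.25 on the log2 scale, and 70.8% of its calls were higher in ABCG1KO, against 44.9% with TMM. Over all genes it called 2074 higher and 856 lower, against 996 and 1220 with TMM. Between LysM-DKO and ABCG1KO the number of integrin genes called was 1, against 0 with no count filter and 0 with only the 2 groups in the fit. It was 3 by DESeq2, which over all genes called 1614 higher and 1333 lower, against 1073 and 780 by edgeR. When each WT or LysM-DKO replicate was left out, the number was 0 to 1. The sign turned for 4 differences, none of them called in its own contrast. Leaving out each replicate moved Itgal in LysM-DKO against WT from -1.99 (without LysM-DKO replicate 3) to 1.92, and the replicate block gave -0.34. It moved Itga6 in that contrast from -0.06 to 0.58 (-0.04 without WT replicate 3, and -0.04 and -0.06 without LysM-DKO replicates 2 and 3), Itgb7 in ABCG1KO against WT from -0.26 (without ABCG1KO replicate 1) to 1.47, and Itgal between LysM-DKO and ABCG1KO from -2.97 to 0.11 (without LysM-DKO replicate 1). The cause was not tested. With windows of 100 bases in place of 50, 3.40% of Itgad was shared with a gene elsewhere, against 9.27%, since longer windows match less often. Requiring at least 10 counts in every library removed Itgad, so that setting gives it no value.

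Same-numbered libraries did not all deviate together: over 7 pairs r ran from -0.11 to 0.48. The highest was between WT replicate 2 and LysM-DKO replicate 2. These were the 2 of 6 WT and LysM-DKO libraries that correlated best with their own number. The 2 ABCG1KO libraries mirror each other once their mean is removed (r = -1), so pairs with them can show little. With the replicate number as a block, 0, 2 and 1 integrin genes were called in LysM-DKO against WT, ABCG1KO against WT and LysM-DKO against ABCG1KO, and 0, 1456 and 1024 of all genes, against 5, 2216 and 1853 without the block. Under the block Itgal passed in both ABCG1KO contrasts (log2 differences of 2.58 and -2.92, edgeR adjusted p = 0.0376 and 0.0427), and Itga4 and Itga6 did not. DESeq2 called 278, 3148 and 2947 genes in all. Of the 10 genes, depth limits Itgad in ABCG1KO most, at 6 counts.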
